A study of Mus musculus with 12 samples.

Results

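168FARN cells were compared with 67NR cells on one-colour Agilent mouse miRNA arrays, for every mouse miRNA whose probe was well above background on each of the 3 arrays of one line or the other. This held for 204 of the 567 mouse miRNAs on the array. Both lines come from a spontaneous mammary cancer of BALB/c mice, are labelled female and wild type, and are called non-metastatic by the submitters. No treatment and no genetic change is named for either. The series also holds the lines 4TO7 and 4T1, with 3 arrays for each of the 4 lines and 12 arrays in all, and its design text sets the non-metastatic lines against the metastatic 4T1 to follow the steps of metastasis. Each line is a single established line, so a difference between them is one between these lines and not between classes of tumour. Each array was labelled from 100 ng of total RNA extracted with Trizol. The labels call the 3 arrays of a line repeats, and do not say whether separate cultures were grown. The p-values therefore rest on the spread among 3 arrays a line, which may be only technical.

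In the literature on this progression series, 67NR cells grow as primary tumours with little spread, whereas 168FARN cells can reach the draining lymph nodes without growing further. MicroRNAs are short RNAs that guide Argonaute proteins to messenger RNAs, and they are cut from hairpins that are often transcribed together in clusters. The bases near the 5' end, called the seed, do most of the target pairing, so miRNAs with the same seed form a family with overlapping targets. Either strand of a hairpin can be kept, and the star marks the strand that is usually the scarcer one.

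Here "read" means well above background. Spots of the same probe were averaged, and signals were scaled to the 75th percentile of their array, taken over the 170 probes that were read on all 12 arrays. The level of a miRNA is log2 of that scaled signal of its brightest probe, with a floor of -5.58, and a difference is the level in 168FARN minus the level in 67NR. The probes of different miRNAs differ in brightness, so levels are compared only within a miRNA.

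The sequences of 139 of the 204 miRNAs were matched to mature miRNAs of RefSeq (build GRCm38.p6). The capitals mark the seed, bases 2 to 8 from the 5' end. The first set holds families whose members share a seed and went in opposite directions between the lines.
miR-130a: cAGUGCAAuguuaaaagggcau
miR-130b: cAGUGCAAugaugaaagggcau
miR-301a: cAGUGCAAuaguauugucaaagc
miR-148a: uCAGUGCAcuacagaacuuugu
miR-148b: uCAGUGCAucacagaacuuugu
miR-152: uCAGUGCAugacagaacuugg
miR-193: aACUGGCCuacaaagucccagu
miR-193b: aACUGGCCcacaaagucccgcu
miR-27a: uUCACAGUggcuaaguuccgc
miR-27b: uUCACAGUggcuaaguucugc
miR-100: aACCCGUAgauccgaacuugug
miR-99a: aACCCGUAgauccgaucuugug
miR-34a: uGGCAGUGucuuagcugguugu
miR-34b-5p: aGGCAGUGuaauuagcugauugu
The second set is the let-7 family, of which every member was higher in 168FARN, shown by its largest and smallest differences.
let-7i: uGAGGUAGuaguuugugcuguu
let-7b: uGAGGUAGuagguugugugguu
let-7a: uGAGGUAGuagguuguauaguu
The third set holds members of the miR-17-92 cluster, without miR-19b and miR-18a*. It includes the strand that went the other way, miR-17*, and a paralog on the X chromosome, miR-20b.
miR-17: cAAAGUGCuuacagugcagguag
miR-17*: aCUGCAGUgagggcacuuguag
miR-18a: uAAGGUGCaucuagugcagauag
miR-19a: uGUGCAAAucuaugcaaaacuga
miR-20a: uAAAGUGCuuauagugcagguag
miR-92a: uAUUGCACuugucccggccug
miR-20b: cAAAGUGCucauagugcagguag
The fourth set holds miRNAs of the Hox clusters, of which miR-10a was the 1 read throughout both lines.
miR-10a: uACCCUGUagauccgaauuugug
miR-10b: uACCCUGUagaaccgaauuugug
miR-196a: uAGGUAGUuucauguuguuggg
miR-196b: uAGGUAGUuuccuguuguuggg

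The arrays of the lines stood apart in brightness. The 75th percentile used for scaling was 358 to 460 on the 67NR arrays and 791 to 1213 on the 168FARN arrays, a log2 ratio of the means of 1.20. Between 141 and 160 mouse miRNAs were read on a 67NR array and between 175 and 191 on a 168FARN array. The lowest level that was read lay between -5.08 and -4.64 on the 67NR arrays and between -6.51 and -5.64 on the 168FARN arrays, so a miRNA of the same scaled level was read more easily in 168FARN. A control probe set named hur_5 gave 179.9 to 207 in 67NR and 1.25 to 3.44 in 168FARN. The part of these differences in the results was not tested. No spot was saturated. Levels correlated at r = 0.993 to 0.999 within 67NR, 0.995 to 0.999 within 168FARN and 0.539 to 0.551 between the lines, across miRNAs, which are not independent replicates.

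Most of the 204 miRNAs differed between the lines, in both directions. At a Benjamini-Hochberg adjusted p below 0.05 in limma, 90 were higher in 168FARN, 105 were lower and 9 did not pass; 69 of the higher and 84 of the lower differed at least 2-fold. The fit covered 224 miRNAs read in any of the 4 lines, of which 40.2% were called higher and 47.8% lower (30.8% and 37.5% with a difference of at least 2-fold), 87.9% together, so the members' shares are near the background and a call by itself singles out no miRNA. In 191 of the 204 the arrays of the lines did not overlap, beside 39.3% of the 224 with all 168FARN arrays above and 47.3% with all below. The balance of directions depended on the scaling. It was 97 higher and 96 lower with a 75th percentile over all probes, 94 and 99 with quantile scaling, and 107 and 72 with no scaling; with the normexp background correction it was 48 and 134. Through all 3 other scalings, 87 of the higher and 72 of the lower calls remained. The median difference over the 224 tested miRNAs was -0.06 as scaled here, 0.35 with no scaling and -0.89 with normexp.

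Only a miRNA read in both lines could be called in either direction without constraint, since one read in a single line entered through the line where it is high. Of the 110 miRNAs read on all arrays of both lines, 34 were higher in 168FARN, 70 were lower and 6 did not pass, with a median difference of -0.98. A further 54 were read on all 168FARN arrays and no 67NR array, and their direction follows from that choice, except for miR-671-5p, which was called lower with a difference of -0.15 ± 0.04 (SE). Its 67NR levels of -5.23, -5.34 and -5.29 lay below the detection limit of those arrays but above the floor; the call was lost with the halved floor, and the difference turned to 0.13 with the percentile over all probes, to 0.65 with no scaling and to 0.06 with quantile scaling. Another 25 were read on all 67NR arrays and no 168FARN array, which likewise sets their direction. The remaining 15 were read on all arrays of 1 line and some of the other. Of the 9 read throughout 168FARN, 3 were higher, 3 did not pass and miR-219, miR-702 and miR-378* were lower, all 3 with the opposite sign when no scaling was used; these were chosen after their values were seen. The 6 read throughout 67NR are lower by the same choice.

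**Figure D1:**
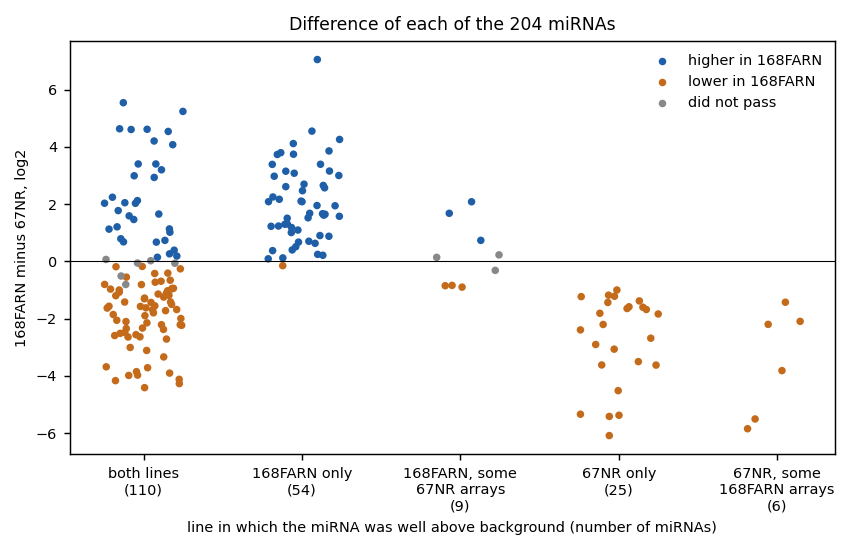
Difference of each of the 204 miRNAs (168FARN minus 67NR, log2, vertical axis), by the line in which it was well above background; each point is 1 miRNA, coloured by its call, and points are spread sideways for legibility. The 110 miRNAs read in both lines lie on both sides of 0 with more below it, while for the 54 read in 168FARN only and the 25 read in 67NR only the side follows from the choice of members, but for miR-671-5p.

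The let-7 family, whose members restrain growth and pluripotency genes such as Ras, Hmga2 and Lin28, was higher in 168FARN throughout. All 9 members were called higher, 8 of them read in both lines, with a median difference of 2.47, compared with -0.06 over all tested miRNAs. The share called higher was 40.2% of all tested miRNAs, and 34 of the 110 read in both lines. let-7i had levels of -4.06, -4.00 and -3.97 on the 67NR arrays and of 1.54, 1.62 and 1.44 on the 168FARN arrays. Its arrays did not overlap, and the difference of 5.54 ± 0.06 (SE, n = 3 against 3), a 46.6-fold ratio, was the largest among miRNAs read in both lines (adjusted p = 6.3e-15). let-7b read -3.49, -3.26 and -3.34 in 67NR and 1.92, 1.96 and 1.74 in 168FARN, a difference of 5.24 ± 0.08. let-7c and let-7d differed by 4.63 and 4.61. let-7a and let-7f differed least, by 1.13 ± 0.06 and 1.21 ± 0.05. let-7a had levels of 1.07, 1.14 and 1.04 in 67NR and of 2.20, 2.33 and 2.12 in 168FARN. let-7e, let-7g and miR-98 lay between, at 2.24, 1.46 and 2.47, the last not read in 67NR. let-7i differs from let-7b at 3 bases and from let-7a at 4, and how far one probe picks up another member was not tested. All 9 were also higher under each of the 3 other scalings.

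The miR-29 family, which targets collagens and other matrix genes, was also higher throughout. Its 4 members comprised miR-29a, miR-29b, miR-29c and miR-29b*. The partner strand miR-29b* was read in 168FARN only, at least 5.26-fold higher, and its direction follows from that choice. The 3 members read in both lines were all called higher, beside 40.2% of all tested miRNAs. miR-29a had levels of -0.83, -0.72 and -0.78 in 67NR and of 3.41, 3.51 and 3.36 in 168FARN, a difference of 4.21 ± 0.05 (adjusted p = 1.8e-14). miR-29b read -0.23, -0.11 and -0.12 against 3.20, 3.37 and 3.18, a difference of 3.40 ± 0.06. miR-29c moved far less, from -0.61, -0.51 and -0.53 to 0.03, 0.22 and 0.12, a difference of 0.67 ± 0.05. For each of the 3 the arrays of the lines did not overlap.

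miR-21, an miRNA raised in many carcinomas that represses Pdcd4, had levels of 0.15, 0.26 and 0.09 in 67NR and of 4.18, 4.37 and 4.17 in 168FARN. The difference was 4.08 ± 0.06 (adjusted p = 5.0e-14), and the 168FARN signals of 22060, 19190 and 14200 were far above the 67NR signals of 508.7, 534.7 and 380.6. Its partner strand miR-21* was read in 168FARN only, at least 2.28-fold higher, though it turned to -0.046 with normexp. miR-125b-5p, of the family that includes lin-4 of nematodes, read -1.79, -1.69 and -1.69 against 2.78, 2.87 and 2.79, a difference of 4.54 ± 0.04. miR-31, which was reported to restrain metastasis of breast cancer cells, read -2.52, -2.53 and -2.53 against 0.87, 0.92 and 0.84, a difference of 3.40 ± 0.03. Its partner strand miR-31* differed by 2.99 ± 0.06. Both strands of the miR-31 hairpin were thus higher on every 168FARN array. miR-709, for which no role is given here, differed by 4.61 ± 0.06, with levels of -3.71, -3.75 and -3.63 against 0.91, 0.89 and 0.96.

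The miR-99, miR-100 and miR-125 list and the miR-23, miR-24 and miR-27 list each held members on both sides. In the first, 6 of 7 were higher, among them miR-100 (2.12 ± 0.06), miR-99b (2.05 ± 0.09) and miR-125a-5p (2.03 ± 0.07), and miR-99a was lower by 1.20 ± 0.07, a difference that was 0.00053, of the opposite sign, with no scaling. In the second, 4 of 6 were higher, led by miR-23a (3.20 ± 0.09) and miR-27a (2.93 ± 0.05). There miR-23b and miR-27b were lower, at -0.69 ± 0.06 and -0.97 ± 0.08, but turned to 0.51 and 0.23 with no scaling. Among members read in both lines, 5 of 6 in the first list and 3 of 5 in the second were higher. The others, miR-99b* and miR-24-2*, entered through 168FARN, which sets their direction. Over all tested miRNAs 40.2% were called higher. miR-23a and miR-27a lie in 1 cluster on chromosome 8 (build mm9, chr8:86732465-86732759, with miR-24-2*), and miR-23b and miR-27b in another on chromosome 13 (chr13:63401841-63402580). miR-24, which both clusters encode, was higher by 1.77 ± 0.03.

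**Figure D2:**
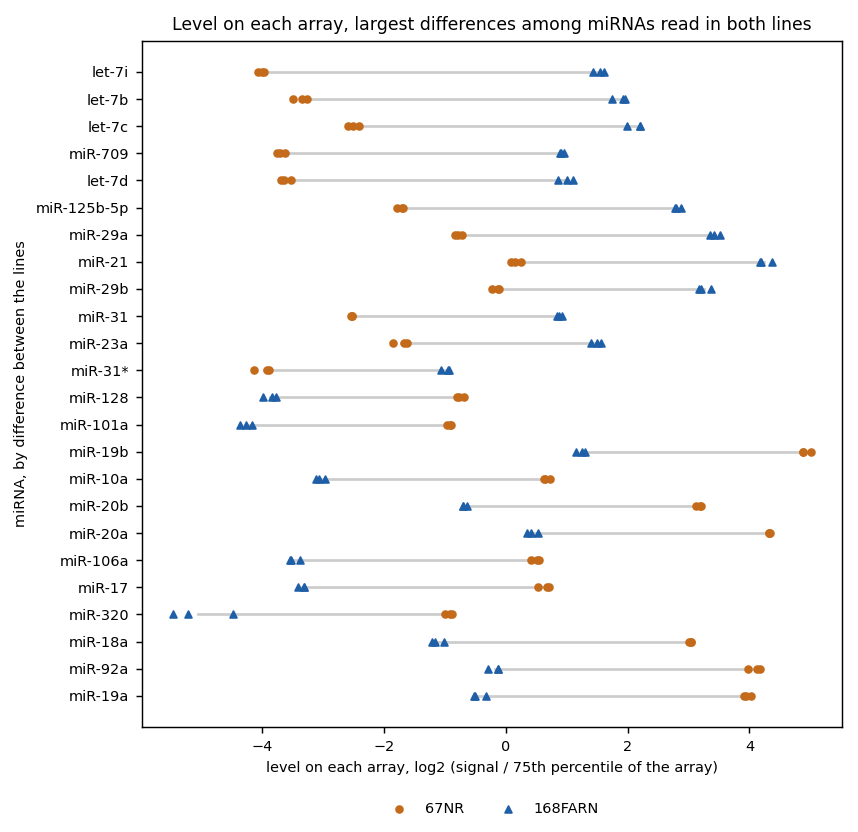
Level on each array (log2 of the scaled signal, horizontal axis) of the 12 highest and 12 lowest differences among miRNAs read in both lines, with circles for the 3 arrays of 67NR, triangles for the 3 of 168FARN and a grey line joining the means. The arrays of a line lie close together and the lines do not overlap for any of the miRNAs; miR-320 has the widest spread in 168FARN, from -5.45 to -4.47.

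Among the miRNAs read in 168FARN only, 43 allow a lower bound on the ratio, the mean level in 168FARN over the lowest level that could be read on each 67NR array, or the miRNA's own value there where that is higher. For 28 of them the bound was at least 2-fold, and for the other 11 of the 54 no bound above 1 could be given. miR-130a, reported to act in endothelial cells and in tumour growth, gave signals of -1.97, 0.817 and 0.00694 on the 67NR arrays and of 3435, 2684 and 2067 on the 168FARN arrays. It was at least 78.6-fold higher, the largest bound in this direction. miR-350 was at least 13.9-fold higher and miR-182, which represses Foxo genes, at least 10.3-fold; miR-182 signals were 5.56, 5.33 and 5.24 in 67NR and 436.9, 347.7 and 280.7 in 168FARN. miR-146a and miR-155, both induced by NF-kB in immune and other cells, were at least 7.88-fold and 3.73-fold higher. They were the 2 members of a list of 4 NF-kB linked miRNAs. miR-345-5p and miR-690 were at least 6.69-fold and 6.22-fold higher, and miR-101b, known with miR-101a as a repressor of Ezh2, at least 3.84-fold.

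The Fmr1-proximal cluster of the X chromosome, a group of fast-evolving rodent miRNAs best known from testis, was read in 168FARN and almost not in 67NR. Of its 27 miRNAs on the array, 18 were read on all 168FARN arrays, and 26 were read on no 67NR array. None of the 18 was read on all arrays of both lines, so each became a member through 168FARN and its higher value there follows from that; the bounds below give the sizes. In 4TO7 and in 4T1 26 of the 27 were likewise read on no array. The signals summed over the list were 1860 to 2989 on the 168FARN arrays and 17.9 to 67.4 on the 67NR arrays. miR-465c-3p gave -1.59, -0.727 and 0.879 against 477.4, 405.2 and 297.1, at least 11.3-fold higher. miR-743a and miR-741 were at least 8.59-fold and 8.24-fold higher, and miR-883a-3p, miR-743b-3p and miR-470 at least 5.01-fold, 4.74-fold and 4.66-fold. The 1 member read on any 67NR array was miR-878-3p, at 53.9 on replicate 1 and 4.40 and 4.35 on the others. Its arrays overlapped, and its difference of 1.68 ± 0.72 (adjusted p = 0.046) was lost within slide 1 and without any 1 of 5 of the arrays, all but 67NR replicate 1, and was 2.51 without that array; it was singled out after its values were seen. A run of 16 of these miRNAs lies within 1 group on chromosome X (build mm9, chrX:64029935-64067184), and miR-465c-3p and miR-465c-5p lie nearby (chrX:64079140-64079192). A broader list of 69 miRNAs of rodent families, which contains this cluster, had 21 members, none of them read on all arrays of both lines. One of them was read in 67NR only, miR-290-5p of the embryonic stem cell cluster, at least 3.20-fold lower in 168FARN. None of the 25 miRNAs of the Sfmbt2 intron cluster, the other large rodent cluster, was read on any array of either line.

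**Figure D3:**
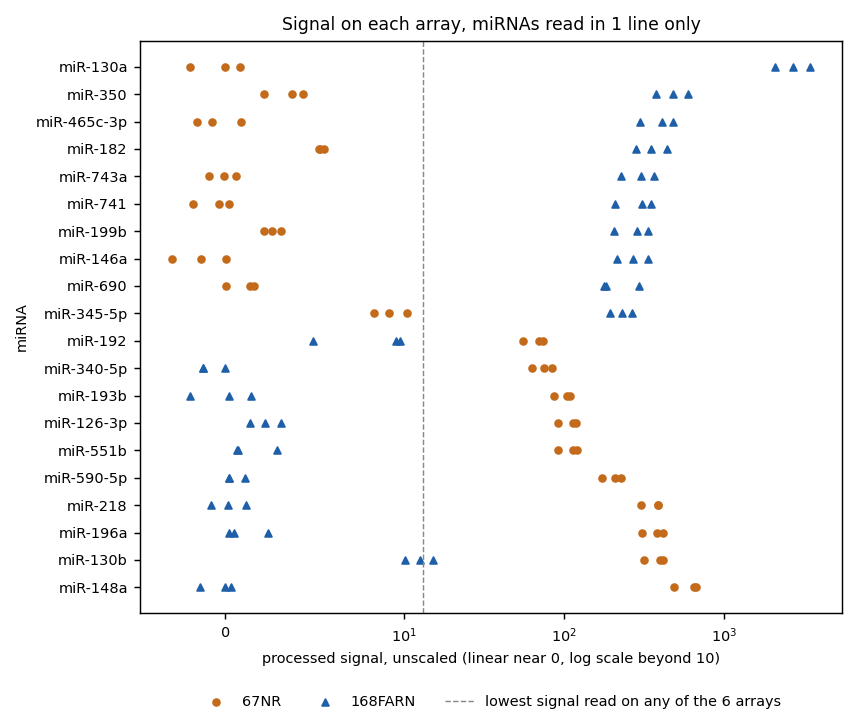
Unscaled processed signal on each array (horizontal axis, linear near 0 and log scale beyond 10) of the 10 largest bounds in each direction among miRNAs read in 1 line only, with circles for 67NR and triangles for 168FARN. The dashed line is the lowest signal read on any of the 6 arrays, 13.3, and the unread line sits at or below it for every miRNA except 1 array of miR-130b in 168FARN, at 15.2, which was not marked as read.

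The miR-17-92 cluster, which Myc induces and which promotes proliferation and survival, was lower in 168FARN. Of its 8 members 7 were lower and miR-17* was higher, with a median of -3.94. Over all tested miRNAs 47.8% were called lower and the median was -0.06. The 6 members read in both lines were all lower, beside 70 of the 110 miRNAs so read. miR-18a* became a member through 67NR, which sets its direction. miR-19a had levels of 3.95, 4.02 and 3.91 in 67NR and of -0.51, -0.32 and -0.52 in 168FARN. The difference of -4.41 ± 0.06 (adjusted p = 1.5e-14) was the lowest among miRNAs read in both lines. miR-92a read 3.97, 4.17 and 4.12 against -0.29, -0.13 and -0.13, and miR-18a 3.04, 3.05 and 3.02 against -1.16, -1.01 and -1.22, differences of -4.27 ± 0.08 and -4.16 ± 0.05. miR-17, miR-20a and miR-19b differed by -3.98, -3.90 and -3.68, so the 6 members read in both lines lay within a narrow range. In RefSeq miR-19b and miR-92a each have 2 copies, so their values cannot be assigned to this cluster alone. miR-18a* gave signals of 128, 133.6 and 110.3 in 67NR and of 17.2, 14.4 and 9.87 in 168FARN, where it was read on some arrays but stayed below the floor; its fitted difference of -3.81 is therefore set by the floor. All 7 were lower under each of the other scalings too. miR-17*, the partner strand of miR-17, went the other way, but it became a member through 168FARN alone, a choice that favours this direction. Its signals were 4.72, 4.00 and 1.14 in 67NR and 104.6, 87.8 and 67.8 in 168FARN, and its difference of 2.08 ± 0.04 is against the floor. With normexp this difference was 0.03 and not called. The cluster lies on chromosome 14 (build mm9, chr14:115442915-115443718), in the gene Mir17hg, and its probes span that stretch.

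The paralogs of the cluster were lower as well. miR-106a and miR-20b, of the X-linked copy (build mm9, chrX:50095336-50095731), differed by -3.97 ± 0.05 and -3.85 ± 0.03. miR-20b had levels of 3.13, 3.20 and 3.18 in 67NR and of -0.71, -0.64 and -0.70 in 168FARN. miR-106a differs from miR-17 at 1 base, so these probes may share signal, which was not tested. The 3 main strands of the copy within Mcm7 (build mm9, chr5:138606560-138607031) were lower by less. miR-93 differed by -1.72 ± 0.03, miR-106b by -1.69 ± 0.04 and miR-25 by -1.42 ± 0.06, and the call of miR-25 was lost with no scaling, at -0.22. miR-106b* did not pass. miR-32, which shares its seed with miR-92a and miR-25, was lower by 2.21 ± 0.19.

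Other miRNAs read in both lines that were lower included miR-320 (-4.12 ± 0.21), miR-101a (-3.34 ± 0.05) and miR-128 (-3.11 ± 0.06), a miRNA most abundant in brain. miR-320 read -0.91, -1.0 and -0.87 in 67NR and -5.45, -4.47 and -5.22 in 168FARN, and within slide 1 its difference was -4.52. miR-103 and miR-107, which target Dicer and genes of insulin signalling, were lower by 2.64 ± 0.05 and 2.34 ± 0.05. miR-221 and miR-222, which repress the cell cycle inhibitor p27 (Cdkn1b), were lower by 2.38 ± 0.09 and 2.21 ± 0.06. miR-221 had levels of 2.28, 2.53 and 2.50 in 67NR and of 0.13, 0.01 and 0.04 in 168FARN. Both pairs kept their direction and their call under each other scaling. In the miR-30 family 6 of 7 members were lower and miR-30a was higher by 0.19 ± 0.05, a call lost within slide 1. miR-30b, miR-30c and miR-30e differed by -1.03, -0.66 and -1.11 and turned to 0.17, 0.54 and 0.09 with no scaling. With no scaling 3 members of the family were called higher and 1 lower. The family median of -1.03 lay near that of the 110 miRNAs read in both lines, -0.98, of which 70 were lower. miR-181b was lower by 0.73 ± 0.10, and its family member miR-181d was lower too, at -1.50 ± 0.11 (adjusted p = 1.2e-07). miR-26a, reported to repress Ezh2, was lower by 0.41 ± 0.06. With no scaling miR-181b turned to 0.47 and miR-26a to 0.79, and miR-26a to 0.07 with the 75th percentile of all probes.

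The Hox cluster miRNAs, which lie between Hox genes and mark the position of a cell's origin along the body axis, were read in 67NR; in 168FARN miR-10a was the 1 member still read on every array. The list has 7 names on the array and 5 members, 4 of which entered through 67NR, so that their direction follows from that choice; signals summed over the list were 1662 to 2184 in 67NR and 113.3 to 188.8 in 168FARN. miR-10a, read in both lines, had levels of 0.62, 0.73 and 0.64 in 67NR and of -3.07, -2.96 and -3.11 in 168FARN, a difference of -3.71 ± 0.04 (adjusted p = 4.2e-15). miR-196a gave 378.4, 413.9 and 307.4 in 67NR and 2.41, 0.471 and 0.208 in 168FARN, at least 58.6-fold lower. miR-10b, which was reported to promote invasion of breast cancer cells, gave 553.1, 546.2 and 424.6 in 67NR and 20.9, 18.8 and 13.1 in 168FARN, where 2 of its 3 arrays were read below the floor. miR-196b gave 406.7, 450.8 and 344.5 against 16.9, 12.2 and 8.41. The fitted differences of -5.84 for miR-10b and -5.50 for miR-196b are set by the floor and are no measure of size. miR-10a differs from miR-10b at 1 base, as does miR-196a from miR-196b, and shared signal within each pair was not tested. miR-10a*, read in 67NR only, was also called lower, a call that the doubled floor removed.

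All 25 miRNAs read in 67NR only had a bound of at least 2-fold, from 2.83 to 96.0. miR-148a, which represses the DNA methyltransferase Dnmt1, gave 668.1, 647.9 and 487.4 in 67NR and -1.40, -0.0108 and 0.316 in 168FARN, and was at least 96.0-fold lower in 168FARN. miR-130b was at least 57.7-fold lower, miR-218, encoded within the Slit genes, at least 57.2-fold and miR-590-5p at least 32.3-fold. miR-551b and miR-126-3p were each at least 17.4-fold lower. miR-126-3p is best known from endothelial cells, where its host gene Egfl7 is active, and it gave 113.8, 119.5 and 92.0 in 67NR. The other endothelial name on the array was read on no array of either line. miR-193b, miR-340-5p and miR-192 were at least 16.0-fold, 11.8-fold and 10.6-fold lower. miR-132, induced by CREB in neurons, was at least 4.30-fold lower, while miR-212 of the same cluster did not pass here and was called higher under each of the 3 other scalings, by 0.42, 1.14 and 0.51.

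Families that share a seed did not always move together. Of 24 seeds shared by 2 or more of the matched members, 68 members in all, 14 had all members called in 1 direction and 8 had members called in both. Many of these members, miR-130a and miR-130b among them, entered through 1 line, which sets their direction. Over all tested miRNAs 40.2% were called higher and 47.8% lower, and nothing is read from the counts. miR-130a and miR-130b differ at 2 bases outside the seed. On the 67NR arrays the probe of miR-130a stayed at or near 0 while that of miR-130b gave 397.6, 416 and 317.1; on the 168FARN arrays miR-130b gave 15.2, 12.7 and 10.3, unread, while miR-130a gave 3435, 2684 and 2067. The third member, miR-301a, was lower by 0.81 ± 0.05 and turned to 0.39 with no scaling. Each line thus had 1 strongly read member of the pair with this seed, and a different one.

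The seed of miR-148a, miR-148b and miR-152 is 1 base offset from that one. miR-148b was lower by 2.63 ± 0.04, with levels of -0.86, -0.75 and -0.79 against -3.47, -3.34 and -3.49. miR-152, read in 168FARN only, was called higher by 0.12 ± 0.03 against the floor, a call that turned to -0.73 with normexp and was lost with quantile scaling and when the percentile came from all probes, so that the opposite direction in this family rests on a miRNA near the detection limit. miR-193 was higher by 1.59 ± 0.05, with levels of -2.36, -2.37 and -2.37 against -0.74, -0.71 and -0.87. miR-193b, which differs from it at 3 bases and was reported to repress urokinase, was lower and unread in 168FARN. miR-100 and miR-99a differ at 1 base, as do miR-27a and miR-27b, and each pair went in opposite directions under the scaling used here. In the miR-34 family, which p53 induces, miR-34a was lower by 1.90 ± 0.05 and was read in both lines, with levels of 0.90, 1.06 and 0.96 in 67NR and of -0.94, -0.82 and -1.02 in 168FARN. miR-34b-5p and miR-34c, from another locus (build mm9, chr9:50911181-50911736), were read in 168FARN only and were at least 1.77-fold and 1.40-fold higher, but turned to -0.25 and -0.35 with normexp. In the miR-15 and miR-16 family, which restrains Bcl2 and cyclins, miR-15a and miR-16 were lower by 2.10 ± 0.04 and 1.80 ± 0.05 and miR-15b by 1.00 ± 0.06, which turned to 0.20 with no scaling. miR-497 and miR-195, from another cluster, were higher by 1.65 ± 0.08 and 1.02 ± 0.08. miR-322 was higher by 0.14 ± 0.05, a call that turned to -0.084 with normexp and was lost within slide 1, with only the 6 arrays of these lines and without 67NR replicate 3.

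**Figure D4:**
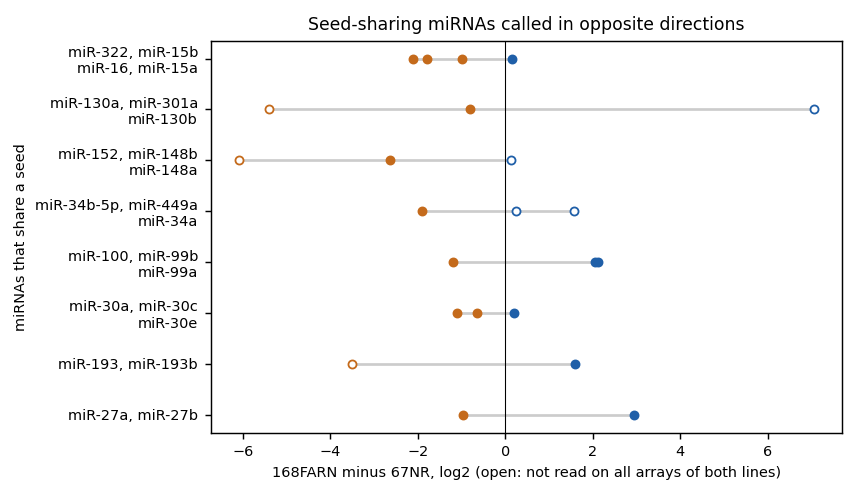
Difference of each miRNA (168FARN minus 67NR, log2, horizontal axis) in the 8 groups of miRNAs that share a seed and hold calls in both directions; blue points were called higher in 168FARN and orange points lower, open points were not read on all arrays of both lines, and grey lines span each group. The widest span is that of miR-130a and miR-130b, from -5.41 to 7.05.

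Probe positions of the array's design (build mm9) placed 120 members in 41 groups with gaps of at most 10000 bases. Of these, 20 groups spanned at most 100 bases and hold the strands of a single hairpin, and 21 hold several hairpins. Of the 21, 14 had all members called in 1 direction and 4 had calls in both, and the other 3 held members that did not pass. Of the 20 single hairpins 18 had both strands called in 1 direction; strands of 1 hairpin are not independent. These counts stand beside the 87.9% of all tested miRNAs that were called, and nothing is read from them. One group with both was the cluster within Clcn5 (chrX:6814821-6825598). There miR-500 and miR-362-3p, both read in 168FARN only, were at least 2.56-fold and 1.90-fold higher but turned to -0.015 and -0.11 with normexp, while miR-532-5p and miR-532-3p were lower by 1.31 ± 0.07 and 1.99 ± 0.10; the call of miR-532-5p was lost with no scaling. In the cluster of miR-322, miR-503 was at least 1.86-fold higher in 168FARN but turned to -0.077 with normexp, and miR-450a-5p, miR-542-5p and miR-542-3p were lower (chrX:50401383-50407504). With strands paired by matching names, both were members for 33 hairpins, and 29 of these had the same call for both. The exceptions were miR-17, miR-106b, miR-362 and miR-30a. This pairing missed miR-30c and miR-30c-2*, which lie on 1 hairpin and were called in opposite directions, at -0.66 and 0.09.

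**Figure D5:**
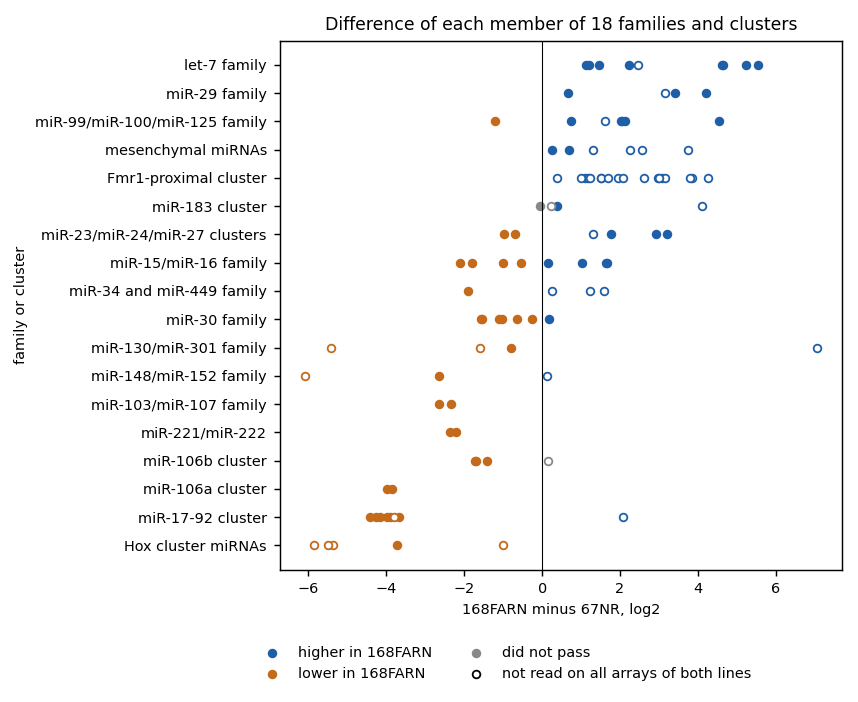
Difference of each member (168FARN minus 67NR, log2, horizontal axis) of 18 families and clusters, 1 row each; filled points were read on all arrays of both lines, open points were not, blue was called higher in 168FARN, orange lower, and grey did not pass. The let-7 and miR-29 families lie wholly above 0, the Hox cluster miRNAs wholly below it, and the miR-17-92 cluster below it except for miR-17*.

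Markers of cell type were checked in both lines. None of the 9 names of the miR-200 family, which maintains the epithelial state, was read on all arrays of either line. In 168FARN all 9 were read on no array, with a summed signal of 0.00 to 1.88, and in 67NR 7 were read on no array, with a summed signal of 25.3 to 38.2. The defining epithelial miRNAs were thus at or near background in both lines, which are labelled as breast cancer lines. Of 5 other epithelial miRNAs, miR-31 and miR-31* were members. The miR-183 cluster, read in epithelial and sensory cells, held miR-182 and miR-96, which were higher (miR-96 by 0.39 ± 0.05), and miR-183 and miR-183*, which did not pass here. Under each of the 3 other scalings all 4 were called higher, miR-183 by 0.41, 1.13 and 0.40 with the percentile over all probes, no scaling and quantile scaling; with normexp miR-183 and miR-183* were lower, at -0.34 and -0.79. Of a list of 10 mesenchymal miRNAs 6 were members, 4 of them through 168FARN alone, which sets their direction. Of these, miR-199b and miR-199a-5p were at least 7.93-fold and 3.52-fold higher, miR-199b* at least 2.82-fold and miR-143 at least 1.46-fold. miR-140* and miR-140, read in both lines, were higher by 0.68 ± 0.05 and 0.26 ± 0.04. With the normexp background correction miR-143 turned to -0.27 and miR-140 to -0.21, and the calls of miR-199b* and miR-140* were lost. The summed signal of the list was 106 to 137.4 in 67NR and 725.5 to 1146 in 168FARN.

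Markers of other tissues were mostly unread. Of 8 blood miRNAs, miR-142-3p was a member, at least 1.09-fold higher in 168FARN with signals of 47.2, 37.4 and 28.7, but at -0.47 with normexp; of 7 muscle miRNAs, miR-206 was a member, too close to the limit of 67NR for a bound and at -0.46 with normexp. None of the 5 liver and pancreas miRNAs was read on any array of either line. The 5 neural miRNAs that were members, all read in both lines, were all called lower, and with no scaling only miR-128 still was. Their median of -0.95 lay near that of the 110 miRNAs read in both lines, -0.98, of which 70 were lower. Of 73 miRNAs of the Dlk1-Dio3 cluster, 3 were members, miR-494, miR-487b and miR-431*. All were called lower, beside 47.8% of all tested miRNAs. miR-431* entered through 67NR, which sets its direction. With no scaling miR-494 and miR-487b turned to 0.25 and 0.78.

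The miRNAs reported to promote or suppress breast cancer metastasis did not share a direction. Of the 7 reported promoters 3 were higher and 4 lower, with miR-21, miR-155 and miR-10b on different sides as given above. Of the 6 members among 10 reported suppressors 3 were higher, miR-31 among them, and 3 were lower, with miR-193b and miR-34a among the lists above. Read in both lines were 4 promoters, 1 higher and 3 lower, and 2 suppressors, 1 higher and 1 lower. The others entered through 1 line, which sets their direction. Over all tested miRNAs 40.2% were called higher and 47.8% lower.

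The 9 miRNAs that did not pass included 6 read on all arrays of both lines. miR-362-5p differed by 0.02 ± 0.08, miR-212 by -0.06 ± 0.14, miR-183 by -0.06 ± 0.10 and miR-26b by 0.07 ± 0.06. These non-calls hold for the scaling used here, since all 4 were called higher under each of the 3 other scalings. miR-697 and miR-202-3p differed by -0.51 ± 0.78 and -0.81 ± 0.66, with standard errors more than 10 times the median of 0.0545. miR-697 gave signals of 96.4, 23.0 and 15.9 in 67NR and 33.2, 142.1 and 31.4 in 168FARN. miR-202-3p gave 568.7, 173.1 and 123.5 against 195.2, 683 and 206.3. In both, replicate 1 of 67NR and replicate 2 of 168FARN were the high arrays of their line. miR-183*, miR-106b* and miR-188-5p, not read on every 67NR array, differed by 0.23 ± 0.12, 0.14 ± 0.15 and -0.31 ± 0.17.

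The slides and the lines were partly confounded. All 67NR arrays and replicate 1 of 168FARN were on slide 1, and replicates 2 and 3 of 168FARN on slide 2, with the scan coinciding with the slide. Within slide 1, where 168FARN has 1 array and is assumed to vary as the other groups do, 86 miRNAs were higher and 105 lower, and 86 of the higher and 104 of the lower calls remained. Among miRNAs read in both lines the difference moved by a median of 0.0333, and by 1.01 at most, for miR-697. miR-212, which did not pass over all arrays, was called lower within slide 1, at -0.46.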

How the data were processed

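The deposited files hold 1 array each. Per the file headers, the intensity values are processed signals that the authors' run of Feature Extraction 10.2.1.3 had corrected for a spatially detrended background, without scaling between arrays, and the authors' table of values holds the same signals (largest gap 0, with medians of 1.20 to 1.97, so unscaled and linear). Control spots and 284 to 508 spots an array marked as uneven or as outliers were left out of 12493. A probe was read where most of its remaining spots were flagged well above background. The brightest of a miRNA's probes stood for it; of 110 members read in both lines with a second probe, 6 differed in sign, 1 with both over 0.1. The floor was 0.0209, the median over arrays of the lowest scaled value read.

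limma 3.58.1 in R 4.3.3 (data.table, version 1.17.8) fitted 4 lines to 12 arrays (8 residual degrees of freedom), with two-sided moderated tests adjusted over 224 miRNAs and called below 0.05. The code was tested on simulated data. The number of arrays, 3 a line, limits precision.

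The named miRNAs are the 12 highest and 12 lowest differences read in both lines, called and without overlap, the 10 largest bounds each way, up to 4 members of each list by adjusted p, and the 5 smallest differences; 27 of 144 were added after their values were seen. A planned choice of the brightest miRNAs was not used, since levels of different probes are not comparable. The members and lists were chosen with earlier results of these data known. The alternatives were other scalings, normexp with an offset of 50, the mean of all probes, other filters and floors, the 6 arrays alone, slide and replicate terms, and each array left out. Sequences from RefSeq were matched by name, with arms assigned by hand; members on chromosome 18 have none printed.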

Additional observations from a re-analysis of the deposited data

Results flagged for a closer look

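Outside the miRNA probes, the control probe set hur_5 gave a signal on the 67NR arrays and not on those of the other lines. Its lowest signal on a 67NR array was 179.9, with 207 as the highest, and it was read on all 3. It was read on none of the other 9 arrays, where signals were 1.25 to 3.44 in 168FARN, 1.37 to 2.50 in 4TO7 and 3.94 to 6.36 in 4T1. Another set, hur_1, gave 189400 to 215400 in 67NR and 50790 to 67010 in 168FARN. Their part in the comparison of the lines was not tested.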

How the results depend on the processing

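Over the 204 miRNAs, 195 calls were made, 153 of them at least 2-fold apart, and both numbers stayed within 1.5 times of these under every alternative that kept all 204. Restricted to the miRNAs read in both lines, which tests fewer, the counts were 104 called (34 higher) and 80 at least 2-fold apart (26 higher, 54 lower), and 75 of the named miRNAs were called. With normexp the higher calls were 48, 31 of them at least 2-fold, and with no scaling 45 lower calls were at least 2-fold; for these the cause was not tested. Leaving out each array in turn gave 190 to 194 calls, with 86 to 88 higher and 102 to 106 lower; 151 to 155 were at least 2-fold, with 66 to 69 higher and 84 to 86 lower, and 131 to 134 named miRNAs were called, beside 135 over all arrays.

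Of 144 named miRNAs, the sign changed for 24 with no scaling, 21 with normexp, 7 with the percentile over all probes, 4 with quantile scaling, 2 with the mean of all probes and 1 with the slide as a block, which gives the same estimates as slide 1 alone. No sign changed with the other floors, filters, the 6 arrays alone or the replicate block; where a doubled floor put both lines at the floor no value could be given. With no scaling the differences were miR-212 1.14, miR-183 1.13, miR-365 1.02, miR-26a 0.79, miR-487b 0.78, miR-697 0.69, miR-671-5p 0.65, miR-188-5p 0.61, miR-30c 0.54, miR-23b 0.51, miR-181b 0.47, miR-7a 0.39, miR-301a 0.39, miR-202-3p 0.39, miR-219 0.36, miR-378* 0.30, miR-494 0.25, miR-7a* 0.24, miR-27b 0.23, miR-15b 0.20, miR-30b 0.17, miR-702 0.15, miR-30e 0.085 and miR-99a 0.00053. With normexp they were miR-30c-2* -0.82, miR-449a -0.80, miR-183* -0.79, miR-152 -0.73, miR-362-5p -0.72, miR-106b* -0.64, let-7c-2* -0.54, miR-193* -0.53, miR-142-3p -0.47, miR-206 -0.46, miR-34c -0.35, miR-143 -0.27, miR-34b-5p -0.25, miR-24-2* -0.23, miR-140 -0.21, miR-362-3p -0.11, miR-26b -0.092, miR-322 -0.084, miR-503 -0.077, miR-21* -0.046 and miR-500 -0.015. With the percentile over all probes they were miR-212 0.42, miR-183 0.41, miR-365 0.30, miR-671-5p 0.13, miR-188-5p 0.078, miR-26a 0.068 and miR-487b 0.054. Quantile scaling gave miR-212 0.51, miR-183 0.40, miR-365 0.29 and miR-671-5p 0.058, the mean of all probes miR-212 0.018 and miR-183 0.019, and the slide block miR-362-5p -0.011. Leaving out 1 array turned 5 miRNAs, none of them called: miR-106b* (-0.041 to 0.28), miR-183 (-0.16 to 0.015), miR-212 (-0.20 to 0.14), miR-362-5p (-0.080 to 0.11) and miR-697 (-1.25 to 0.20).

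The deviations of same-numbered arrays correlated with mixed signs (r = -0.64, -0.53 and 0.511), which does not settle whether the replicate numbers pair arrays. With these numbers as a replicate block 191 miRNAs were called (87 higher, 104 lower), 152 at least 2-fold (68 and 84). Signal over background sets the limit. The lowest log2 level read was -5.08 to -4.64 on the 67NR arrays, and a miRNA unread there could lie near or somewhat above it. On 67NR replicate 2, for example, miR-191* was unread at a signal of 15.2, while the lowest signal read was 13.3. The 3 arrays a line limit the precision.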
